A study of Homo sapiens with 12 samples.

Results

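The nuclear pore proteins and karyopherins form a set of 57 genes that covers the parts of the nuclear pore, the importins, the exportins and the enzymes of the Ran cycle. Members were taken by gene symbol from the raw count table, which lists 59251 genes, and all 57 were among the 13318 genes tested. The set was compared in HL60 cells, an established human acute myeloid leukemia line, given for 48 h either 1 µM all-trans retinoic acid (ATRA), the CDK4/6 inhibitor (CDK4/6i) palbociclib at 1 µM, or both agents (CDK4/6i+ATRA), with non-treated cells as controls. RNA-Seq covered 3 libraries per group, labelled as biological replicates, 12 in all. All 4 groups come from this single cell line, so nothing here extends to other lines or to patient cells.

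Nuclear pores are channels through both membranes of the nuclear envelope. A scaffold of Y-shaped complexes and an inner ring holds unstructured proteins that fill the channel, with a basket on the nuclear side and filaments on the cytoplasmic side. Importins carry cargo in and exportins carry cargo out, and both read the direction from the small GTPase Ran, which is loaded with GTP by RCC1 on chromatin and made to hydrolyse it by RANGAP1 in the cytoplasm. Rapidly dividing cells rebuild pores after each mitosis and assemble more of them before it.

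The libraries held between 12230923 and 18679544 counts, so that 3 counts, taken as the floor of detection, were 0.156 to 0.275 CPM (counts scaled to a common library size), a limit that covers counting error only. CPM were scaled with TMM factors, which were 0.840 to 0.893 in the CDK4/6i+ATRA libraries and 1.03 to 1.07 in the other 9. Of the markers of the line, MPO fell from 6517 ± 168 CPM in non-treated cells to 28.0 ± 5.15 with CDK4/6i+ATRA (mean ± SD, n = 3), and CD33 was 93.9 ± 2.5 and 99.8 ± 5.24 CPM. Between the same groups MYB fell from 341 ± 5.72 to 11.2 ± 1.42 CPM, and CTSG from 14.0 ± 2.42 to 0.638 ± 0.157 CPM. AZU1, PRTN3 and ELANE, which mark the same cells, were at 0 in every library, and all 3 are listed also on an alternate contig. Among genes so listed 65.9% had no count, against 51.0% of the genes on primary chromosomes only, and the members NUP160, AAAS and IPO4 are listed on patch contigs. The levels of these 3 members may therefore be too low, which was not tested. HBB, HBA1, EPCAM and MS4A1 were at 0 in every library, while the lymphoid list summed to 13.1 to 27.0 CPM and the epithelial and stromal list to 14.2 to 31.4 CPM.

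With CDK4/6i+ATRA nearly all members of the set were lower. Of the 57 members, 53 fell against non-treated cells and 3 rose (edgeR quasi-likelihood test, Benjamini-Hochberg adjusted over all genes tested, adjusted p under 0.05), whereas 40.7% of all genes tested were called lower and 41.0% higher. With library size alone in place of TMM 54 members fell and 1 rose, where 6431 of 13318 genes were lower and 4376 higher. With TMM the median log2 fold change of the members was -1.40, with a range of -3.85 to 0.77, and that of all genes was 0.02. Of the members, 33 (57.9%) fell at least 2-fold, against 23.3% of all genes. In 40 members (70.2%) all 3 CDK4/6i+ATRA libraries lay below every other library, an arrangement found in 25.7% of all genes. In 3 members (5.26%) they lay above every other library, against 28.3% of all genes. The summed level of the set per gene length went from 2285 ± 39.6 CPM per kb in the non-treated group to 1693 ± 38.4 under ATRA, 1587 ± 17.9 under CDK4/6i and 896 ± 8.77 under CDK4/6i+ATRA (mean ± SD, n = 3). CDK4/6i+ATRA thus left 39.2% of the summed level. In bulk RNA, less RNA per cell and fewer cells with that RNA cannot be told apart.

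The fall of the set came with a fall of proliferation genes under CDK4/6i and CDK4/6i+ATRA, but not under ATRA alone. A list of 8 proliferation genes (MKI67, TOP2A, CCNB1, CDK1, MCM2, MCM5, PCNA and RRM2) summed to 3284 to 3322 CPM in the non-treated group, 3896 to 3970 under ATRA, 452 to 469 under CDK4/6i and 95.9 to 99.2 under CDK4/6i+ATRA. With ATRA alone the proliferation list was above non-treated cells, while the summed level of the transport set was 74.1% of theirs. The part of proliferation in the results was not tested.

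**Figure D1:**
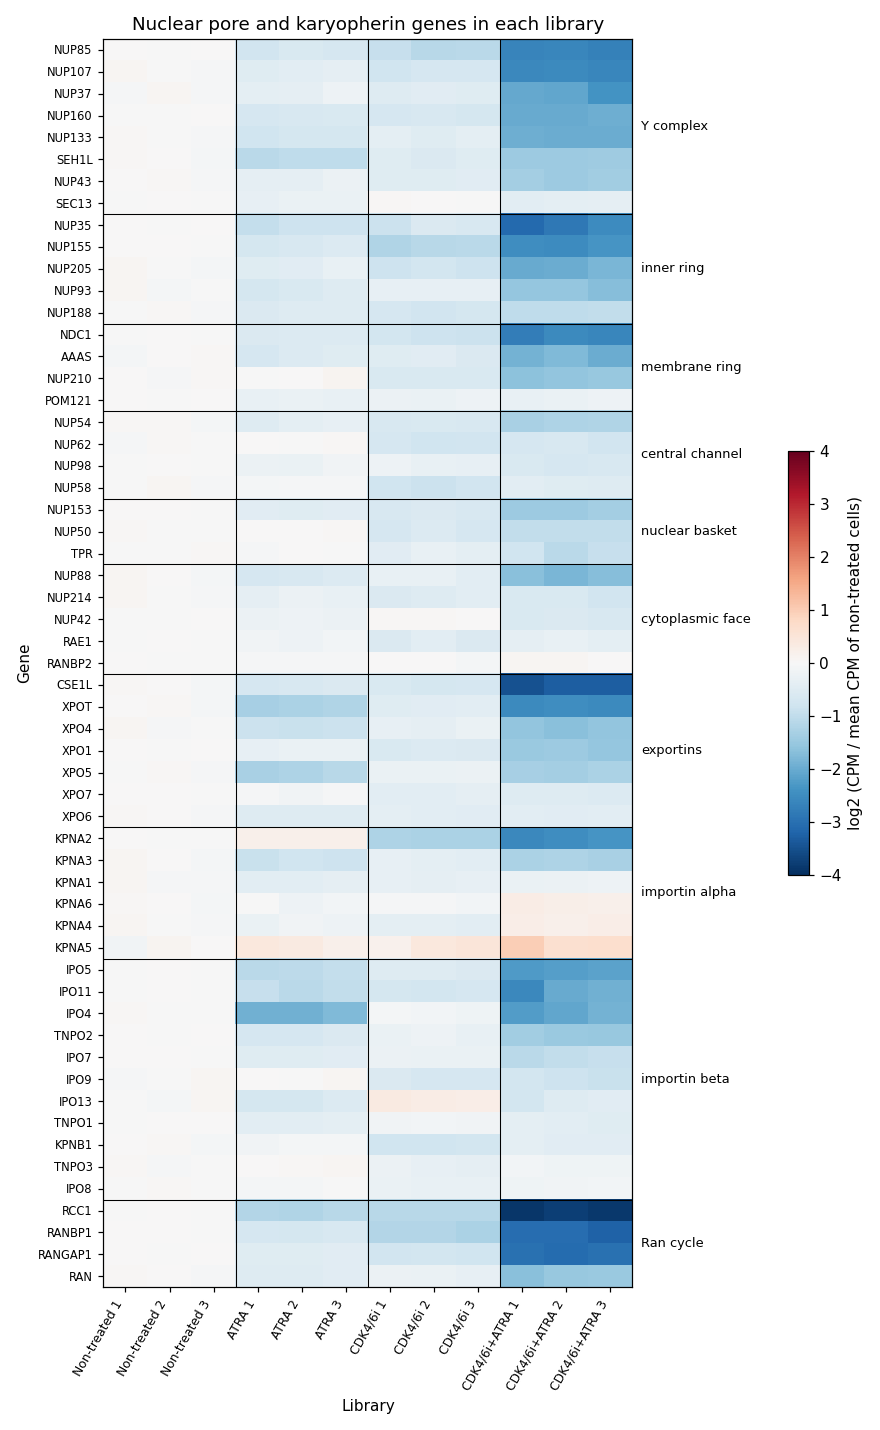
The 57 genes (vertical axis, grouped by class) in the 12 libraries (horizontal axis), coloured by log2 of CPM over the mean CPM of non-treated cells. The CDK4/6i+ATRA columns are the darkest blue for most genes, with a median log2 fold change of -1.40, and KPNA4, KPNA5 and KPNA6 are the members with all 3 of those libraries above every other library, as in 28.3% of all genes.

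Each drug alone lowered most of the set by a smaller amount. With ATRA 45 members fell and 2 rose, where 35.5% of all genes were lower and 32.1% higher, and the median was -0.43 on the log2 scale (all genes, -0.03). With CDK4/6i 51 fell and 2 rose, where 27.9% of all genes were lower and 28.3% higher, and the median was -0.47 (all genes, 0.02). Falls of at least 2-fold were few, 6 members with ATRA and 5 with CDK4/6i, against 8.88% and 5.52% of all genes. Because both drugs were set against one group of non-treated libraries, their values stand side by side only. By call, 41 members fell with each of the drugs (15.8% of all genes), 9 with CDK4/6i and without a call for ATRA (6.47% of all genes; IPO8, IPO9, NUP210, NUP50, NUP58, NUP62, TNPO3, TPR and XPO7), and 3 with ATRA and without a call for CDK4/6i (12.1% of all genes; KPNA6, NUP42 and SEC13). Calls near the threshold set some of these patterns: in DESeq2 the counts were 38, 11 and 3 (13.8%, 6.68% and 12.1% of all genes). The ATRA calls of KPNA6 (adjusted p = 0.0460, edgeR) and RAE1 (adjusted p = 0.0255, edgeR) were lost there (adjusted p = 0.247 and 0.134). IPO13 and KPNA2 were called in opposite directions (13.3% of all genes), KPNA5 rose with both (14.1%), and RANBP2 was called with neither (19.3%). In all, 4 members were called in opposite directions with library size alone (13.2% of all genes), as NUP210 and TNPO3 were then called higher with ATRA (adjusted p = 0.0476 and 0.0295, edgeR). Without non-treated replicate 1 KPNA5 was called with neither drug (adjusted p = 0.0828 and 0.0622, edgeR).

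Classes of the machinery differed in the size of the fall with CDK4/6i+ATRA, as a description without a test between classes, where 40.7% of all genes were lower and 23.3% lower by at least 2-fold. All 13 scaffold genes fell, with a median of -1.97 on the log2 scale, and 12 of them fell at least 2-fold. All 7 exportins fell, with a median of -1.49. The 17 importins split into 14 that fell and 3 that rose, with a median of -0.56. The 4 Ran cycle genes all fell, with a median of -3.06. The other 16 pore proteins, outside the scaffold, had 15 falls and a median of -0.81. By summed level per length, CDK4/6i+ATRA left 38.6% of the scaffold, 33.0% of the exportins, 45.4% of the importins, 51.8% of the other pore proteins and 23.4% of the Ran cycle genes. In all 13 scaffold genes the CDK4/6i+ATRA libraries lay below every other library, as they did in 5 of 7 exportins, 7 of 17 importins, 11 of 16 other pore proteins and 4 of 4 Ran cycle genes, against 25.7% of all genes.

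**Figure D2:**
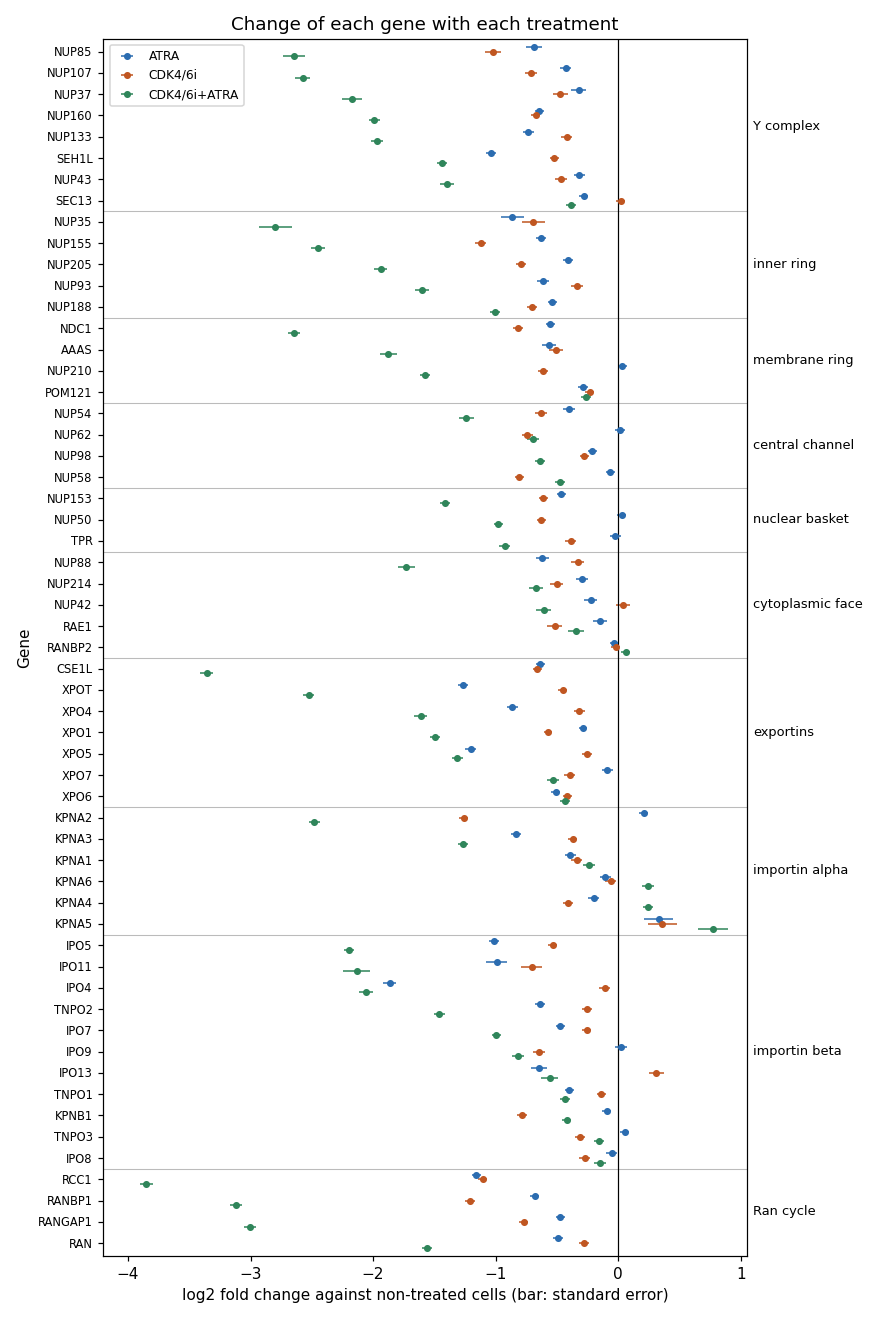
Log2 fold change against non-treated cells (horizontal axis, with its standard error as a bar) of each gene (vertical axis, grouped by class) with ATRA, CDK4/6i and CDK4/6i+ATRA. The CDK4/6i+ATRA points reach -3.85 for RCC1 and -3.36 for CSE1L, while those of the importin α genes KPNA4, KPNA5 and KPNA6 lie to the right of 0, at 0.24, 0.77 and 0.24 (-0.021 for KPNA4 and -0.022 for KPNA6 with library size alone).

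The promoters of 4 members, chosen after their values were seen, are shown as examples of different responses with TMM scaling: the largest fall among exportins (CSE1L), the largest fall among importin α genes (KPNA2), an importin α gene with a small rise with both drugs (KPNA6), and the member called with no treatment against non-treated cells (RANBP2). Each runs from 250 bases before to 50 bases after the start of the gene, 5′ to 3′ on the gene's strand, from RefSeq on GRCh38.p14. Positions are chr20:49046062-49046361 for CSE1L, chr17:68035485-68035784 for KPNA2, chr1:32107806-32108105 for KPNA6 and chr2:108719232-108719531 for RANBP2, all on the plus strand. Capitals mark the letters of the cell cycle genes homology region (CHR, TTTGAA or TTCGAA) and of the CCAAT box (CCAAT), on either strand.
CSE1L: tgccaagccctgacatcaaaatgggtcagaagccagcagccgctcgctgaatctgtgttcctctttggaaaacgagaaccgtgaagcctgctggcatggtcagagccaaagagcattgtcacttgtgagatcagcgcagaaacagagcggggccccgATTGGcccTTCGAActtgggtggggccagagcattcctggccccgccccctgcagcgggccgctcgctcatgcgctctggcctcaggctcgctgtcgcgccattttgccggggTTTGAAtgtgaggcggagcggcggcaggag
KPNA2: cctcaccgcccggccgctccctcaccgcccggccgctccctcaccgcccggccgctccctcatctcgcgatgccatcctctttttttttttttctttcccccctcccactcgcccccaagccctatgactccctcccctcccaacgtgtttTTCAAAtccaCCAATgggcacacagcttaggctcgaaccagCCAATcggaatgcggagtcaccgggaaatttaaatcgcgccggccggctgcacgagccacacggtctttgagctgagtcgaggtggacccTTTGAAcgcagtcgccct
KPNA6: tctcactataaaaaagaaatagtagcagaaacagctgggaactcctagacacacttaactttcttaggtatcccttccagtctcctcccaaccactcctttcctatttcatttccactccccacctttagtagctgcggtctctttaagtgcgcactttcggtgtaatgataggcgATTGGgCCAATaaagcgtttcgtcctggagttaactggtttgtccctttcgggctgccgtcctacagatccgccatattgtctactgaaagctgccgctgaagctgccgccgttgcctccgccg
RANBP2: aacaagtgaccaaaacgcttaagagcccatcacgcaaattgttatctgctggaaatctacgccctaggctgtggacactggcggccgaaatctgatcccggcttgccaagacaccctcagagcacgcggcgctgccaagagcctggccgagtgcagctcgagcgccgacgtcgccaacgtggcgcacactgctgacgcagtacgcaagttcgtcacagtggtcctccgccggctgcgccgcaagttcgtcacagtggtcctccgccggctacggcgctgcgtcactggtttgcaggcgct
The CSE1L and KPNA2 promoters each held 2 CHR matches, with 1 and 2 CCAAT matches. The KPNA6 promoter held 2 CCAAT matches that lie side by side on opposite strands and no CHR match, and the RANBP2 promoter held neither. Promoters were given for 51 of the 57 members. Among those not printed, RCC1, the member with the largest fall, held no CHR or CCAAT match, while NUP98, which fell less than 2-fold, held both. CHR letters were found in 14 of the 51 (27.5%) and in 19.5% of all 27305 promoters of the same length, in 11 of the 31 members that fell at least 2-fold and in 3 of the 20 others. CCAAT letters were found in 41.2% of the members and 39.7% of all promoters, with 13 of the same 31 and 8 of the same 20. E-box letters (CACGTG) were found in 17.6% against 8.77%, and E2F letters (TTTCCCGC, TTTCGCGC, TTTGCCGC or TTTGGCGC) in 5.88% against 3.99%, on both strands. By the same split, E-box letters were in 7 of 31 and 2 of 20, and E2F letters in 2 of 31 and 1 of 20. None of these motifs contains another. A match is a description of the letters and not a bound site.

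The Ran cycle had the lowest class median, and RCC1 the largest fall of all members, although CSE1L fell more than RANBP1 and RANGAP1, and RAN fell less than the scaffold median. RCC1 (chr1:28506043-28538989, plus strand), the exchange factor that loads Ran with GTP on chromatin, had 274, 279.7 and 270.3 CPM in non-treated libraries, 121, 120.0 and 128 with ATRA, 128, 126 and 128 with CDK4/6i, and 18.3, 20.0 and 18.8 with CDK4/6i+ATRA. The single drugs gave nearly the same level, and the CDK4/6i+ATRA libraries lay far below all others. The fall with CDK4/6i+ATRA was 14.4-fold (-3.85 ± 0.0528 on the log2 scale, SE, adjusted p = 8.48e-48, edgeR). RCC1 exons overlap SNHG3 on the same strand, a gene with 15.7% as many counts.

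RANGAP1 (chr22:41244779-41302369, minus strand), the activating protein that makes Ran hydrolyse GTP, had 243, 235 and 239 CPM in non-treated libraries. It had 172, 169 and 174 CPM with ATRA, 139, 142 and 139 with CDK4/6i, and 30.2, 28.4 and 30.4 with CDK4/6i+ATRA. No groups overlapped, and the fall with both drugs was 8.04-fold (-3.01 ± 0.0482, adjusted p = 6.26e-45, edgeR). RAN itself (chr12:130872066-130877678, plus strand), the highest member per length in non-treated cells at 282 ± 7.8 CPM per kb, had 713, 703 and 675 CPM in non-treated libraries. RAN had 484, 489 and 514 CPM with ATRA, 594, 575 and 557 with CDK4/6i, and 219, 242 and 248 with CDK4/6i+ATRA. The 4 groups did not overlap, and with both drugs RAN fell by 1.56 on the log2 scale (SE 0.0429, adjusted p = 7.49e-35, edgeR). RANBP1, which helps RANGAP1, fell by 3.12 on that scale, and its exons overlap TRMT2A on the opposite strand, with 28.0% as many counts.

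Among the exportins the importin α recycling factor fell most. CSE1L (chr20:49046312-49096949, plus strand), whose promoter is printed above, carries importin α back to the cytoplasm after cargo release. It had 314, 310.0 and 289 CPM in non-treated libraries, 190.3, 195 and 202 with ATRA, 198, 187 and 192 with CDK4/6i, and 26.9, 30.8 and 31.1 with CDK4/6i+ATRA. ATRA alone left 64.4% of the level of non-treated cells and CDK4/6i alone 63.3%, and with both drugs CSE1L was 10.3-fold lower (-3.36 ± 0.0524, adjusted p = 1.94e-45, edgeR). XPO1 (chr2:61477849-61538612, minus strand), the general exportin for leucine-rich export signals, had 509, 498 and 504 CPM in non-treated libraries. XPO1 had 401, 421 and 417 CPM with ATRA, 332, 343 and 340.3 with CDK4/6i, and 180.2, 184 and 173 with CDK4/6i+ATRA. Its groups did not overlap, in the order non-treated, ATRA, CDK4/6i, CDK4/6i+ATRA, and the fall with both drugs was 1.49 on the log2 scale (-1.49 ± 0.0383, adjusted p = 3.87e-36, edgeR).

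XPO6 (chr16:28097976-28211965, minus strand), the exportin of actin, had the smallest fall of the class with both drugs (-0.43). It had 188, 185 and 177 CPM in non-treated libraries, 129, 128 and 129 with ATRA, 139.7, 138 and 135 with CDK4/6i, and 136, 134 and 137 with CDK4/6i+ATRA. All treated libraries were below the non-treated ones, and those of CDK4/6i and CDK4/6i+ATRA overlapped. The second drug gave no called change with TMM (-0.02 against CDK4/6i, adjusted p = 0.667, and 0.08 against ATRA, adjusted p = 0.0838, edgeR), but this depended on the processing. With library size alone XPO6 was called lower against both (-0.30, adjusted p = 9.83e-09, and -0.23, adjusted p = 2.2e-06, edgeR). With no filter it was called lower against CDK4/6i (-0.12, adjusted p = 0.0384, edgeR), and with 10 or more counts per library higher against ATRA (0.08, adjusted p = 0.0425, edgeR). Of the others, chosen after their values were seen, XPOT, the exportin of tRNA, fell by 1.27 on the log2 scale with ATRA, 0.45 with CDK4/6i and 2.53 with both. XPO5, which exports precursors of miRNAs, fell by 1.20 with ATRA, 0.26 with CDK4/6i and 1.31 with both, and its exons overlap POLR1C on the opposite strand, with 29.6% as many counts. XPO4 fell by 1.61 and XPO7 by 0.53 with both drugs.

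The importin α genes, adaptors that bind nuclear localization signals, went in both directions with CDK4/6i+ATRA. KPNA1, KPNA2 and KPNA3 fell, and KPNA4, KPNA5 and KPNA6 rose, of which KPNA4 and KPNA6 no longer rose with library size alone. KPNA2 (chr17:68035735-68046854, plus strand) had 379, 371 and 366 CPM in non-treated libraries, 432, 427 and 432 with ATRA, 158, 154 and 154 with CDK4/6i, and 62.0, 66.0 and 72.1 with CDK4/6i+ATRA. No groups overlapped, with ATRA highest and CDK4/6i+ATRA lowest. KPNA2 rose with ATRA (0.21 ± 0.0362 on the log2 scale, adjusted p = 1.46e-06), fell with CDK4/6i (-1.26 ± 0.0383, adjusted p = 5.03e-32) and was 5.57-fold lower with both (-2.48 ± 0.0442, adjusted p = 6.06e-43, edgeR).

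KPNA4 (chr3:160495007-160565571, minus strand) had 134, 127 and 124 CPM in non-treated libraries, 107, 115 and 112 with ATRA, 97.4, 97.2 and 95.3 with CDK4/6i, and 153, 148 and 154 with CDK4/6i+ATRA. Each drug alone lowered it and the CDK4/6i+ATRA libraries were the highest of all. The rise against non-treated cells was small (0.24 ± 0.0416, adjusted p = 8.05e-07, edgeR), and with library size alone in place of TMM it was -0.021. KPNA6, whose promoter is printed above, had 96.8, 94.4 and 89.2 CPM in non-treated libraries, 93.2, 81.7 and 85.9 with ATRA, 90.8, 90.8 and 87.0 with CDK4/6i, and 115, 109 and 107 with CDK4/6i+ATRA. The single drugs overlapped the non-treated libraries, and the rise with both was again small (0.24 ± 0.0481, adjusted p = 1.18e-05, edgeR) and was -0.022 with library size alone. KPNA5 (chr6:116681211-116741867, plus strand), the lowest member per length at 0.699 ± 0.0646 CPM per kb in non-treated cells, had 7.87, 9.47 and 8.90 CPM there. KPNA5 had 11.7, 11.3 and 10.1 CPM with ATRA, 9.91, 11.7 and 12.2 with CDK4/6i, and 17.4, 13.5 and 14.0 with CDK4/6i+ATRA. The single-drug groups overlapped each other, and those with both drugs were above all, a rise of 0.77 ± 0.121 on the log2 scale (adjusted p = 1.35e-07, edgeR).

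KPNA1 (chr3:122421902-122514939, minus strand) had 114, 104 and 104 CPM in non-treated libraries, 80.8, 80.6 and 83.5 with ATRA, 84.9, 83.5 and 86.0 with CDK4/6i, and 88.8, 90.3 and 93.4 with CDK4/6i+ATRA. Every treated library was below the non-treated ones, and the fall was smaller with both drugs (-0.24 ± 0.0460) than with ATRA (-0.39 ± 0.0444) or CDK4/6i (-0.34 ± 0.0441). Against ATRA the level with both drugs was higher (0.15, adjusted p = 0.00344, edgeR), but -0.15 with library size alone (adjusted p = 0.00353), and its call was lost with no filter (adjusted p = 0.491) and with only the groups compared (adjusted p = 0.0859, edgeR). Against CDK4/6i the difference of 0.10 just missed the threshold. It was -0.18 and called lower with library size alone (adjusted p = 0.000618), and called higher with DESeq2 size factors (0.11, adjusted p = 0.0323) and with 10 or more counts per library (0.13, adjusted p = 0.00821, edgeR).

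The makeup of the importin α pool differed between the groups. Per gene length, KPNA2 held 61.3 ± 0.714% of the summed importin α level in the non-treated group, 72.6 ± 0.390% under ATRA, 45.3 ± 0.202% under CDK4/6i and 28.6 ± 1.73% under CDK4/6i+ATRA (mean ± SD, n = 3). KPNA4 went from 6.07 ± 0.0931% to 18.7 ± 0.313% and KPNA6 from 4.47 ± 0.0719% to 13.8 ± 0.715% with both drugs. Genes that fell gained share too, KPNA1 from 6.48 ± 0.199% to 14.3 ± 0.140% and KPNA3 from 21.4 ± 0.580% to 23.2 ± 0.950%, so that a gain in share does not mark a rise in level. The summed importin α level with both drugs was 38.4% of that in non-treated cells, and 70.7% without KPNA2. Counted without division by length, the share of KPNA2 was 38.9% in non-treated cells and 12.4% with both drugs.

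**Figure D3:**
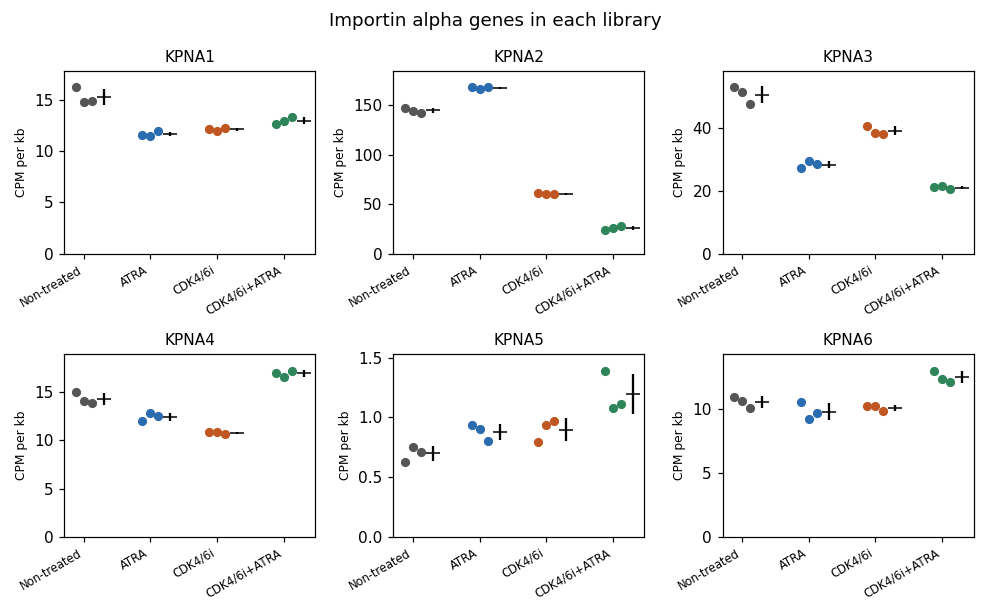
CPM per kb (vertical axes, each from 0 on its own scale) of the 6 importin α genes in the 4 groups (horizontal axes), with a point for each library and a dash with a bar for the mean ± SD of 3. KPNA2 reaches 167 CPM per kb with ATRA and drops to 25.9 with CDK4/6i+ATRA, where KPNA4, KPNA5 and KPNA6 are at their highest.

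All 11 importin β genes, the transport receptors themselves, fell with CDK4/6i+ATRA, with a median of -0.82 on the log2 scale. IPO5 (chr13:97953675-98024296, plus strand), an importer of ribosomal proteins and histones, fell most. It had 814, 836 and 806 CPM in non-treated libraries, 391, 399 and 427 with ATRA, 571, 575 and 548 with CDK4/6i, and 169.8, 179 and 186 with CDK4/6i+ATRA. The groups did not overlap and the fall with both drugs was 4.59-fold (-2.20 ± 0.0428, adjusted p = 2.67e-41, edgeR). KPNB1 (chr17:47649919-47685505, plus strand), the partner of importin α, had 639.6, 659 and 600.5 CPM in non-treated libraries, 578, 598 and 603 with ATRA, 363, 362 and 377 with CDK4/6i, and 486, 468 and 466 with CDK4/6i+ATRA. Its lowest group was CDK4/6i and not CDK4/6i+ATRA, and the non-treated and ATRA libraries overlapped. KPNB1 fell by 0.79 with CDK4/6i and by 0.42 with both drugs, and the level with both was above that with CDK4/6i (0.36 ± 0.0398, adjusted p = 1.33e-11, edgeR). Its call with ATRA (-0.09, adjusted p = 0.0288, edgeR) was lost in DESeq2 (adjusted p = 0.131) and without non-treated replicate 1 or 2 or ATRA replicate 1 (adjusted p 0.0807 to 0.198).

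IPO4, which is listed also on a patch contig and imports histones and a ribosomal protein, was chosen after its values were seen because its largest falls were in the groups with ATRA. It had 135, 129.6 and 129 CPM in non-treated libraries, 34.8, 34.9 and 38.4 with ATRA, 125, 123 and 117 with CDK4/6i, and 28.0, 30.9 and 35.1 with CDK4/6i+ATRA. The libraries with ATRA, with or without CDK4/6i, lay far below the other 6 and overlapped each other. IPO4 fell by 1.86 with ATRA, 0.11 with CDK4/6i and 2.06 with both, and it was lower with both drugs than with ATRA (-0.20, adjusted p = 0.00892, edgeR), a call lost without ATRA replicate 3 (adjusted p = 0.0776) or CDK4/6i+ATRA replicate 1 (adjusted p = 0.122, edgeR). The interaction of the drugs was not called (-0.09, adjusted p = 0.399), but was -0.41 and called with library size alone (adjusted p = 3.31e-05, edgeR). The call for CDK4/6i (adjusted p = 0.0378, edgeR) was lost in DESeq2 (adjusted p = 0.0998) and without non-treated replicate 1 or 2 or CDK4/6i replicate 2 or 3 (adjusted p 0.0542 to 0.175). Of the remaining receptors, IPO11, TNPO2 and IPO7 fell by 2.13, 1.46 and 0.99 with both drugs, IPO9, IPO13 and TNPO1 by 0.82, 0.56 and 0.43, and IPO8 and TNPO3 by 0.15 each. IPO13 was the receptor that rose with CDK4/6i alone (0.31).

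In the pore scaffold the Y complex and the inner ring had medians of -1.98 and -1.94 on the log2 scale with CDK4/6i+ATRA, which left 41.3% and 32.3% of their summed levels per length. NUP85 (chr17:75205679-75235758, plus strand), a Y complex protein, had 49.2, 47.8 and 49.4 CPM in non-treated libraries, 28.8, 31.9 and 30.3 with ATRA, 26.0, 22.6 and 23.2 with CDK4/6i, and 7.88, 8.02 and 7.52 with CDK4/6i+ATRA. The groups did not overlap and the fall with both drugs was 6.25-fold (-2.64 ± 0.0891, adjusted p = 4.76e-31, edgeR). NUP85 exons overlap GGA3 on the opposite strand over 135 bases, and GGA3 had 187.9% as many counts. Of the other Y complex genes NUP107, NUP37, NUP160 and NUP133 fell by 2.58, 2.17, 1.99 and 1.97, and SEH1L and NUP43 by 1.44 and 1.40. SEC13, which also belongs to the COPII coat of vesicles, fell least of the scaffold (-0.39).

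NUP35 (chr2:183117514-183161680, plus strand), an inner ring protein that binds membranes, had 22.8, 22.3 and 23.2 CPM in non-treated libraries, 11.8, 12.8 and 12.9 with ATRA, 12.6, 15.2 and 14.6 with CDK4/6i, and 2.66, 3.12 and 3.97 with CDK4/6i+ATRA. The single drugs overlapped, and the libraries with both drugs were the lowest, 6.95-fold under non-treated cells (-2.80 ± 0.133, adjusted p = 8.68e-25, edgeR). NUP155, NUP205 and NUP93 fell by 2.45, 1.94 and 1.60 with both drugs, and NUP188 by 1.00.

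The membrane ring, which anchors the pore in the envelope, was split. NDC1 (chr1:53765478-53838296, minus strand), a membrane-spanning anchor, had 249, 253 and 248 CPM in non-treated libraries, 167, 172 and 172 with ATRA, 149, 140.2 and 137 with CDK4/6i, and 36.7, 42.4 and 40.6 with CDK4/6i+ATRA. No groups overlapped, and the fall with both drugs was 6.26-fold (-2.65 ± 0.0488, adjusted p = 2.62e-42, edgeR). AAAS and NUP210 fell by 1.88 and 1.57, and POM121 by 0.26. POM121 has near-identical copies, POM121B and POM121C, which held 91.3% as many counts as POM121 itself, so its values are uncertain.

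In the central channel, filled by proteins with phenylalanine-glycine repeats that cargo complexes pass through, all 4 genes fell, with a median of -0.66 on the log2 scale. NUP54 (chr4:76114664-76148397, minus strand), a channel protein, had 85.1, 84.0 and 76.9 CPM in non-treated libraries, 57.4, 63.1 and 65.2 with ATRA, 52.7, 53.3 and 52.8 with CDK4/6i, and 33.7, 34.7 and 35.7 with CDK4/6i+ATRA. The groups did not overlap, and the fall with both drugs was 1.24 on the log2 scale (-1.24 ± 0.0596, adjusted p = 1.45e-24, edgeR). NUP98 (chr11:3675010-3797554, minus strand), whose gene takes part in leukemia fusions, had 200.4, 203 and 201 CPM in non-treated libraries, 173, 168 and 182 with ATRA, 174, 165 and 159 with CDK4/6i, and 132, 127 and 129.7 with CDK4/6i+ATRA. The single drugs overlapped and those with both drugs lay lowest (-0.63 ± 0.0412, adjusted p = 2.12e-19, edgeR). NUP58 and NUP62 fell by 0.48 and 0.69 with both drugs and by 0.81 and 0.74 with CDK4/6i, and the exons of NUP62 overlap ATF5 on the opposite strand, with 96.7% as many counts.

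At the nuclear basket TPR (chr1:186311652-186375253, minus strand), its main filament protein, had 249, 254 and 259.7 CPM in non-treated libraries, 244, 255 and 251 with ATRA, 184, 205 and 193 with CDK4/6i, and 147, 121 and 133 with CDK4/6i+ATRA. Non-treated and ATRA libraries overlapped (-0.02, adjusted p = 0.641, edgeR), and the fall with both drugs was 0.93 on the log2 scale (-0.93 ± 0.0464, adjusted p = 7.44e-24, edgeR). NUP153 (chr6:17615037-17706925, minus strand), which ties the basket to the pore, had 197, 199 and 195 CPM in non-treated libraries, 145, 140.1 and 142 with ATRA, 127, 132 and 127 with CDK4/6i, and 72.4, 72.2 and 76.9 with CDK4/6i+ATRA. Its groups did not overlap and its fall with both drugs was the largest of the basket (-1.41 ± 0.0425, adjusted p = 3.78e-33, edgeR). NUP50, the third gene of the basket, fell by 0.98.

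On the cytoplasmic face NUP88 (chr17:5384833-5419662, minus strand), which holds the export filaments, had 75.1, 71.7 and 67.2 CPM in non-treated libraries, 44.8, 45.8 and 48.6 with ATRA, 58.4, 57.9 and 53.6 with CDK4/6i, and 22.5, 20.1 and 21.8 with CDK4/6i+ATRA. The groups did not overlap and the fall with both drugs was 1.73 on the log2 scale (-1.73 ± 0.0671, adjusted p = 1.93e-28, edgeR), while the exons of NUP88 overlap RABEP1 on the opposite strand over 1437 bases, with 95.4% as many counts. RANBP2 (chr2:108719482-109842301, plus strand, with 1 listed exon far downstream of the rest), the filament protein that binds Ran and RANGAP1, had 414, 401 and 403 CPM in non-treated libraries. RANBP2 had 397, 397 and 396 CPM with ATRA, 408, 407 and 387 with CDK4/6i, and 429, 429 and 413 with CDK4/6i+ATRA. The CDK4/6i+ATRA libraries overlapped the non-treated ones, and the change with both drugs was not called (0.06 ± 0.0368, adjusted p = 0.122, edgeR), although DESeq2 called it higher (0.08, adjusted p = 0.0251), as did a filter that asked for 10 or more counts per library (0.09, adjusted p = 0.0122, edgeR). It was called lower with library size alone (-0.20, adjusted p = 1.58e-06, edgeR), so the direction of the call turned with the scaling. Against the single drugs, which its CDK4/6i+ATRA libraries did not overlap, it was called higher (0.09 against ATRA, adjusted p = 0.0207, and 0.08 against CDK4/6i, adjusted p = 0.0427, edgeR), and with library size alone lower (-0.21 and -0.20). Both calls were lost with no filter (adjusted p = 1.0 and 0.803), with only the groups compared (adjusted p = 0.503 and 0.0675) and without CDK4/6i+ATRA replicate 2 (adjusted p = 0.0799 and 0.131, edgeR), and the call against CDK4/6i also without ATRA replicate 2, CDK4/6i replicate 3 or CDK4/6i+ATRA replicate 1 (adjusted p 0.05005 to 0.223) and with the replicate block (adjusted p = 0.0574, edgeR). The call against ATRA was also lost with DESeq2 size factors (adjusted p = 0.0568, edgeR), and that against CDK4/6i without genes on patch contigs (adjusted p = 0.0512, edgeR). The near-identical RGPD copies of RANBP2 held 0.830% as many counts. NUP214, NUP42 and RAE1 fell by 0.67, 0.61 and 0.34.

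The second drug was also set against each drug alone. Adding ATRA to CDK4/6i lowered 44 members and raised 9, where 39.5% of all genes were lower and 39.1% higher, with a median of -0.91 on the log2 scale (all genes, 0.00). With library size alone the split was 51 lower and 2 higher, where 6554 of 13318 genes were lower and 3805 higher. With no filter it was 46 and 5, for which no count over all genes is given. Falls of at least 2-fold numbered 25 members (19.9% of all genes). Adding CDK4/6i to ATRA lowered 46 members and raised 5, where 32.8% of all genes were lower and 36.9% higher, with a median of -0.84 (all genes, 0.04), and 24 members fell at least 2-fold (13.2% of all genes). There the split was 54 lower and 1 higher with library size alone, where 6412 of 13318 genes were lower and 2956 higher. It was 49 and 3 with no filter and 49 and 3 with only the groups compared, for which no count over all genes is given. The 13 scaffold genes fell in both comparisons, with medians of -1.31 against CDK4/6i and -1.35 against ATRA. The call of SEC13 against ATRA (-0.10, adjusted p = 0.0233, edgeR) was lost without ATRA replicate 2 or 3 or CDK4/6i+ATRA replicate 1 (adjusted p 0.0683 to 0.0790). Importins were mixed, with 10 lower and 6 higher against CDK4/6i and 10 lower and 4 higher against ATRA, but with library size alone the higher ones numbered 2 and 1. IPO8 and TNPO3 of the former and KPNA1 of the latter turned negative, and KPNA5 and KPNA6 lost their calls against CDK4/6i (adjusted p = 0.305 and 0.631) and against ATRA (adjusted p = 0.318 and 0.468, edgeR).

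Whether the drugs together departed from the sum of their single effects was tested as the interaction, the log2 change with both drugs minus the sum of the log2 changes with each. It was negative in 35 members and positive in 10, where 27.0% of all genes were negative and 24.5% positive, with a median of -0.38 (all genes, -0.02). With library size alone the split was 46 negative and 4 positive, where 6061 of 13318 genes were negative and 1375 positive, and the median of all genes moved to -0.34. The most negative values were those of CSE1L (-2.06 ± 0.0680, adjusted p = 8.05e-30), RANGAP1 (-1.76 ± 0.0630, adjusted p = 2.16e-28) and RCC1 (-1.59 ± 0.0706, adjusted p = 9.94e-25, edgeR). The most positive were those of KPNA4 (0.85 ± 0.0592, adjusted p = 2.18e-17), XPO6 (0.49 ± 0.0551, adjusted p = 1.04e-10) and KPNA1 (0.49 ± 0.0646, adjusted p = 6.92e-09, edgeR). In 9 members the value was -1 or below (9.88% of all genes), among them KPNA2, NUP107 and NUP37 at -1.43, -1.43 and -1.38. By class the medians were -0.70 for the scaffold, -0.43 for the exportins, -0.06 for the importins and -1.41 for the Ran cycle.

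**Figure D4:**
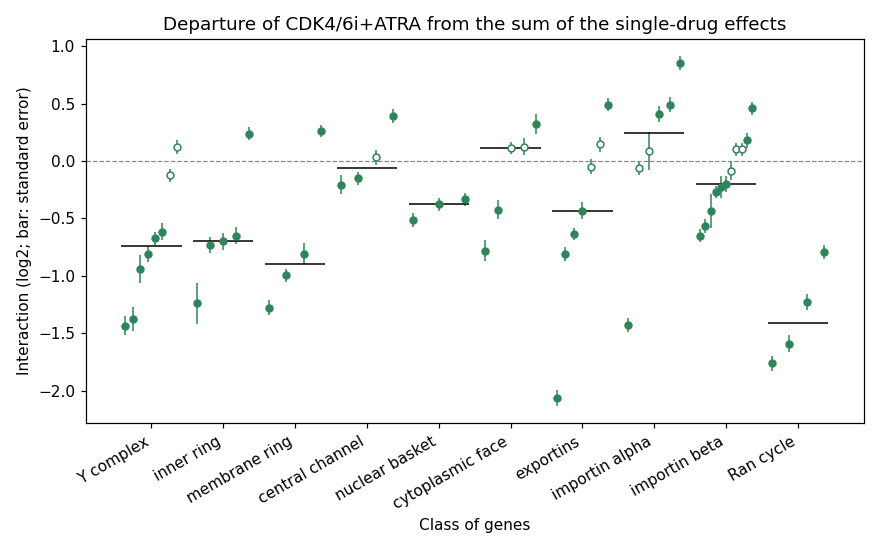
Interaction of the drugs on the log2 scale (vertical axis, with its standard error as a bar) for each gene by class (horizontal axis); filled points passed the adjusted p of 0.05, open points did not, and the black line is the median of the class. CSE1L lies lowest at -2.06 and KPNA4 highest at 0.85, and the Ran cycle genes all lie below 0.

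Other genes of nuclear transport were counted in the same way, without a test against the members. Of 46 such genes (mRNA export factors, other pore and pore assembly proteins, other receptors and Ran binders), 39 were tested, and with CDK4/6i+ATRA 25 fell, 7 rose and the median was -0.48 on the log2 scale, where 40.7% of all genes were lower and 41.0% higher. With library size alone 32 fell, 5 rose and the median was -0.75, with that of all genes at -0.25. By that scaling 6431 of 13318 genes were lower and 4376 higher. With TMM the 22 tested mRNA export factors had 16 falls, 2 rises and a median of -0.70. The 9 tested other pore and pore assembly genes had 5 falls, 3 rises and a median of -0.13, and the 8 tested other receptors and Ran binders had 4 falls, 2 rises and a median of -0.28. With library size alone the medians of these lists were, in the same order, -0.96, -0.39 and -0.55. Their falls and rises were then 20 and 1, 6 and 2, and 6 and 2. With TMM the largest falls were those of the mRNA export helicase DDX39A, from 255 ± 6.09 to 42.8 ± 1.12 CPM (-2.57, adjusted p = 6.38e-43), and of THOC3 of the TREX complex, from 108 ± 4.0 to 18.6 ± 1.83 CPM (-2.53, adjusted p = 6.17e-37, edgeR). The largest rises were those of NMD3, the export adaptor of the large ribosomal subunit, from 119 ± 5.28 to 324 ± 15.7 CPM (1.44, adjusted p = 1.28e-34), and of NXF1, the main mRNA export receptor, from 56.7 ± 1.88 to 122 ± 17.7 CPM (1.10, adjusted p = 1.48e-22, edgeR).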

How the data were processed

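Total RNA of 12 HL60 libraries was sequenced from directional libraries. Per the labels, reads were trimmed with Trimmomatic 0.33 and aligned to hg38 with STAR 2.7.11a, and the authors deposited raw gene counts (whole numbers, not normalized, replicates not pooled) on the NCBI RefSeq annotation. The methods name RSEM, whereas the table looks like featureCounts output. Counting by strand is not given in the sources used here, so a gene and an overlapping antisense gene cannot be told apart. The deposited gene length gave CPM per kb.

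filterByExpr (minimum count 10) kept 13318 of 59251 genes. edgeR 4.0.16 (R 4.3.3) with TMM scaling gave the quasi-likelihood F tests from a single model of all groups, with 8 residual degrees of freedom, a common biological coefficient of variation of 3.7%, Benjamini-Hochberg adjustment over all genes tested and a threshold of 0.05. Errors of log2 fold changes are standard errors. The test was checked on simulated counts in which few genes changed, which does not test the scaling between libraries. Members, classes, other transport genes and markers were chosen with earlier results of these data known.

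Values in every library were given for XPO1, KPNB1, RAN, NUP98, TPR and RANBP2, for the largest called fall and rise per class (both drugs against non-treated cells), and for the 3 most negative and 3 most positive called interactions. Any other gene with such values was chosen after they were seen. Of the other transport genes, the 2 largest called falls and rises are named. Alternatives were library size alone, DESeq2 size factors, no filter, 10 or more counts per library, DESeq2 1.42.0, a replicate block, fits of only the compared groups, each library left out and, chosen after seeing the data, leaving out genes that also sit on alternate or patch contigs. Replicates differed by more than sampling noise (chi-square per degree of freedom 1.83 to 6.49). Depth was 12230923 to 18679544 counts per library. Tables and figures used python 3.11.15, pandas 2.3.3, numpy 2.4.6 and matplotlib 3.10.9.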

Additional observations from a re-analysis of the deposited data

Results flagged for a closer look

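The effect of ATRA differed between cells with and without CDK4/6i by the test of the interaction (edgeR quasi-likelihood test, Benjamini-Hochberg adjusted). It was more negative with CDK4/6i in 35 of the 57 members and more positive in 10, against 27.0% and 24.5% of all genes. With library size alone in place of TMM the split was 46 and 4, where 6061 of 13318 genes were called negative and 1375 positive. No group had the 4 samples needed to look for a sample standing apart.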

How the results depend on the processing

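Over 57 members and 6 comparisons, which give 342 calls, DESeq2 in place of edgeR kept 333, DESeq2 size factors 333, the filter of at least 10 counts 332 and no filter 325. Removal of genes on patch contigs, which leaves out 3 members, kept 322 of 324, and only the groups compared kept 275 of 285. The counts of members lower stayed within 1.5 times under every alternative. Library size alone kept 295 and shifted the median of all genes to -0.25, -0.28, -0.26 and -0.34 (log2) with both drugs against non-treated cells, CDK4/6i and ATRA and in the interaction. Members higher then numbered 4 with ATRA, 1 with both drugs, 2 against CDK4/6i, 1 against ATRA and 4 in the interaction. In the same order 4519, 4376, 3805, 2956 and 1375 of 13318 genes were called higher with library size alone. The medians with both drugs were then -2.23 (scaffold), -0.83 (importins) and -1.76 (exportins). Signs that turned under it, among changes called in at least one of the fits, were, with both drugs against non-treated cells, KPNA4 -0.021, KPNA6 -0.022 and RANBP2 -0.20. Against CDK4/6i they were IPO8 -0.15, KPNA1 -0.18, NUP62 -0.23, RAE1 -0.10, RANBP2 -0.20 and TNPO3 -0.12, and against ATRA IPO13 -0.22, KPNA1 -0.15, POM121 -0.28, RANBP2 -0.21 and XPO6 -0.23. In the interaction they were IPO8 -0.14, NUP188 -0.080, NUP214 -0.19, NUP62 -0.29, POM121 -0.061, RANBP2 -0.20, SEH1L -0.20, TNPO1 -0.22, TNPO3 -0.22 and XPO5 -0.17. Without a filter RANBP2 turned to -0.021 against CDK4/6i, and members higher were 5 against CDK4/6i and 3 against ATRA, the latter also 3 with only the groups compared. The cause was not tested beyond the shift of all genes. Leaving out each library in turn gave 1 to 2 members higher with ATRA and 1 to 2 with CDK4/6i, a median of importins with both drugs of -0.62 to -0.48, and 31 to 36 negative and 9 to 13 positive interactions. The member lost was KPNA5, without non-treated replicate 1 (adjusted p = 0.0828 with ATRA and 0.0622 with CDK4/6i), ATRA replicate 1 (0.0596) or CDK4/6i replicate 3 (0.0569, edgeR). The call of KPNA6 with ATRA (-0.11, adjusted p = 0.0460) was lost in DESeq2 (0.247) and without any one of 7 libraries (0.0509 to 0.297, edgeR). Replicate numbers did not pair the samples (correlations of same-numbered deviations -0.0702 to 0.0328), and the fit with the replicate block kept 341 calls, with 53 members lower and 3 higher with both drugs, and lost RANBP2 against CDK4/6i (adjusted p = 0.0574, edgeR).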
